A study of Mus musculus with 21 samples.

Results

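The circadian clock genes of the mouse cecum are described here as a set of 30 genes, covering the core transcription loop, its kinases and ubiquitin ligases, and its output factors. They were taken by name from the table of raw counts per gene of 21 cecum libraries, with Ensembl identifiers named by GENCODE release M21. All 30 were among the 25361 identifiers in the table, and 28 had enough counts to be tested. Per3 and Usp2 were listed at 0 in all 21 libraries. Nup62, Chchd2 and Mgat2, genes used by nearly every cell and looked up after their values were seen, were listed at 0 in the table too, so nothing is read from the zeros of Per3 and Usp2.

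All libraries came from C57BL/6 mice, an inbred strain, and from their cecum, a blind pouch of the large bowel where microbes ferment fibre. Every mouse received the Total Western Diet, a rodent diet modelled on typical American nutrient intake, from 3 weeks of age and for 6 weeks. For 3 further weeks the same diet carried no broccoli powder (0%, 6 libraries), 0.5% (5 libraries), 1.0% (5 libraries) or 2.5% broccoli powder (5 libraries). The time of day of tissue collection is not given in the sources used here, so it cannot be told apart from any difference between mice described below.

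The clock is a feedback loop of transcription. ARNTL (also called BMAL1) pairs with CLOCK or NPAS2 and activates genes through E-box sequences, among them the Period, Cryptochrome and Nr1d genes and Dbp. PER and CRY proteins then shut their own activators off, and the NR1D receptors repress Arntl, Clock, Npas2 and Nfil3 through sequences called ROREs, where ROR receptors activate. As a result the activator genes and the Per, Nr1d and Dbp genes peak at opposite times of day in most tissues, the gut among them, where the clock is also set by feeding time.

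The 5 genes shown here were picked from those whose promoter held an E-box or a RORE. In the variation described below, 2 moved with Dbp (Ciart and Tef) and 3 with Arntl (Arntl itself, Cry1 and Nfil3). Some genes further out than Ciart and Cry1, such as Nr1d2 and Npas2, are not shown. Promoter sequences are given because E-boxes and ROREs are the elements through which the loop is wired. They are the 250 bases before and 50 after the annotated start from RefSeq on GRCm38.p6, written 5′ to 3′ on the strand of the gene, at chr3:95882179-95882478 on the minus strand, chr15:81802423-81802722 on the plus strand, chr7:113207261-113207560 on the plus strand, chr10:85185005-85185304 on the minus strand and chr13:52980990-52981289 on the minus strand. Capitals mark the E-box CACGTG, its variant CACGTT, which reads AACGTG from the other strand, and the RORE TAGGTCA, which reads TGACCTA from the other strand.
Ciart: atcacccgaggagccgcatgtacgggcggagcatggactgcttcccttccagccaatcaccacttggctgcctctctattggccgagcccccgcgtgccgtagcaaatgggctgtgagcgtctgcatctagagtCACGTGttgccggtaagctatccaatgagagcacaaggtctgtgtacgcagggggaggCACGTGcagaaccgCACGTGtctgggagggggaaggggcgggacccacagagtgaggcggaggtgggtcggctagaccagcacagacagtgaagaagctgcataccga
Tef: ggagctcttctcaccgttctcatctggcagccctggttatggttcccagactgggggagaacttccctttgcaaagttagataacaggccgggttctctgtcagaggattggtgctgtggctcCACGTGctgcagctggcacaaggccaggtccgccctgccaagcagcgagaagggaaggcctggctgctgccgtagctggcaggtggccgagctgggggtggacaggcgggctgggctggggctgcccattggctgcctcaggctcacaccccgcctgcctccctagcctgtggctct
Arntl: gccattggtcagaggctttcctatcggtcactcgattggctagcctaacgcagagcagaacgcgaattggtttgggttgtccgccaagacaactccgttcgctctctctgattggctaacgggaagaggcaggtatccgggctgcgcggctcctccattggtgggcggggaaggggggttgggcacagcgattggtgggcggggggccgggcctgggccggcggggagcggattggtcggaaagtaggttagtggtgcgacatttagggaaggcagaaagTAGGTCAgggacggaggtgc
Cry1: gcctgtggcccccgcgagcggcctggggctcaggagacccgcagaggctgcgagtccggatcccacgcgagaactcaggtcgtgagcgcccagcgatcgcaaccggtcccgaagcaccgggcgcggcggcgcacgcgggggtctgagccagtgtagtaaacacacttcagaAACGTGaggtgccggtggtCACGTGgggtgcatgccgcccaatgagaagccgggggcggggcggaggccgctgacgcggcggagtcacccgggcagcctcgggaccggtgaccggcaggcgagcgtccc
Nfil3: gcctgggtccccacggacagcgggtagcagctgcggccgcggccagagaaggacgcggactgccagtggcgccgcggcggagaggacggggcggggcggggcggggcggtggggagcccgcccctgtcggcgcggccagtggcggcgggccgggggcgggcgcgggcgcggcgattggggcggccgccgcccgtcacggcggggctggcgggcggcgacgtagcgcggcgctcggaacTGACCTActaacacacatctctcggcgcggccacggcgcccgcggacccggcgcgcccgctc

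The Ciart window held 3 E-boxes, beginning 116, 58 and 44 bases before the start, the Tef window 1 and the Cry1 window 1 beside 1 CACGTT variant. The Arntl and Nfil3 windows each held 1 RORE, which began 30 bases after and 12 bases before the start. Of the 30 genes, 24 had a promoter entry. These 24 genes have 34 windows, since some have several starts. CACGTG was found in 7 of the 34 windows (of Bhlhe41, Ciart, Cry1, Cul1, Per1 and Tef), against 7.15% of all 32851 mouse promoter windows of that length. The variant CACGTT was found in 3 of the 34 windows (of Cry1, Cry2 and Nr1d1), against 4.68% of all windows, and TAGGTCA in 2 (of Arntl and Nfil3), against 2.61%. The D-box, the site of DBP, TEF, HLF and NFIL3, was searched as TTATGNAA and found in 3 of the 34 windows (of Per1, Per3 and Timeless), against 3.38% of all windows. Both strands were searched, and no hit of 1 motif overlapped a hit of another in the windows shown. A match is a description of the sequence, and a window without one says only that these letters are not in it.

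Libraries held between 28514263 and 58594569 counts, and levels are given as CPM, which sets each count against the total of its library, scaled by TMM, a correction for differences in RNA makeup. The large bowel markers Slc26a3, at 536 to 1228 CPM, and Car1, at 2868 to 5790 CPM, were high in every library, as the tissue label says. In 6 libraries (replicate 5 at 0%, 1 and 4 at 0.5%, 1 at 1.0%, 1 and 2 at 2.5%) the mean of 10 small intestine genes was above 3 on the log2 CPM scale. The 12 immediate early genes, which respond within minutes to handling and stress, had their 3 highest means in replicates 3, 4 and 5 at 2.5%, at 5.63, 6.02 and 5.80 log2 CPM, against 4.37 to 5.51 in the other 18 libraries. At 2.5%, only replicates 3, 4 and 5 remain without the small intestine libraries. Only replicates 1 and 2 remain there without the immediate early libraries, so the checks use opposite parts of that diet. For the clock genes, the value without the small intestine or the immediate early libraries is given where leaving them out changed a call. It is also given where a change at 2.5% against 0% with an unadjusted p under 0.05 moved by over 1.5 times. The further pathway genes described last were not followed in this way. In bulk tissue, fewer cells of a type and less RNA per cell cannot be told apart.

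Per kilobase of exon, the clock genes differed widely in level. The ubiquitin ligase subunit Skp1a stood highest with a mean of 44.02 CPM per kilobase over the 21 libraries, followed by the transcriptional repressor Bhlhe40 with 38.1 and the kinase gene Csnk1d with 26.2. Nr1d1 averaged 22.1, Nr1d2 18.5, Clock 15.98, Npas2 13.2, Tef 8.27, Cry1 7.80 and Arntl 7.60 CPM per kilobase. Per2 with 4.93, Dbp with 4.78, Cry2 with 4.21, Per1 with 3.04, Ciart with 2.81 and Hlf with 2.67 CPM per kilobase lay lower, and Timeless, Bhlhe41 and the ligase gene Fbxl21 were below 1. Arntl, Cry1 and Rora (7.70) lay close together in this order, nearer than the spread of Arntl or Cry1 between mice.

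Several clock genes, Dbp most of all, varied more between mice of the same diet than most tested genes did. Arntl and its partners were high in some mice, where Dbp, Tef and Nr1d2 were low, and the other way round in others. On 2.5% broccoli powder, replicates 1 and 3 had less Arntl and more Dbp than replicates 2, 4 and 5. The spread was much the same at 0%. From the lowest to the highest library, Arntl differed 1.62-fold at 0% and 1.63-fold at 2.5%, and Dbp 4.87-fold and 5.12-fold.

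**Figure D1:**
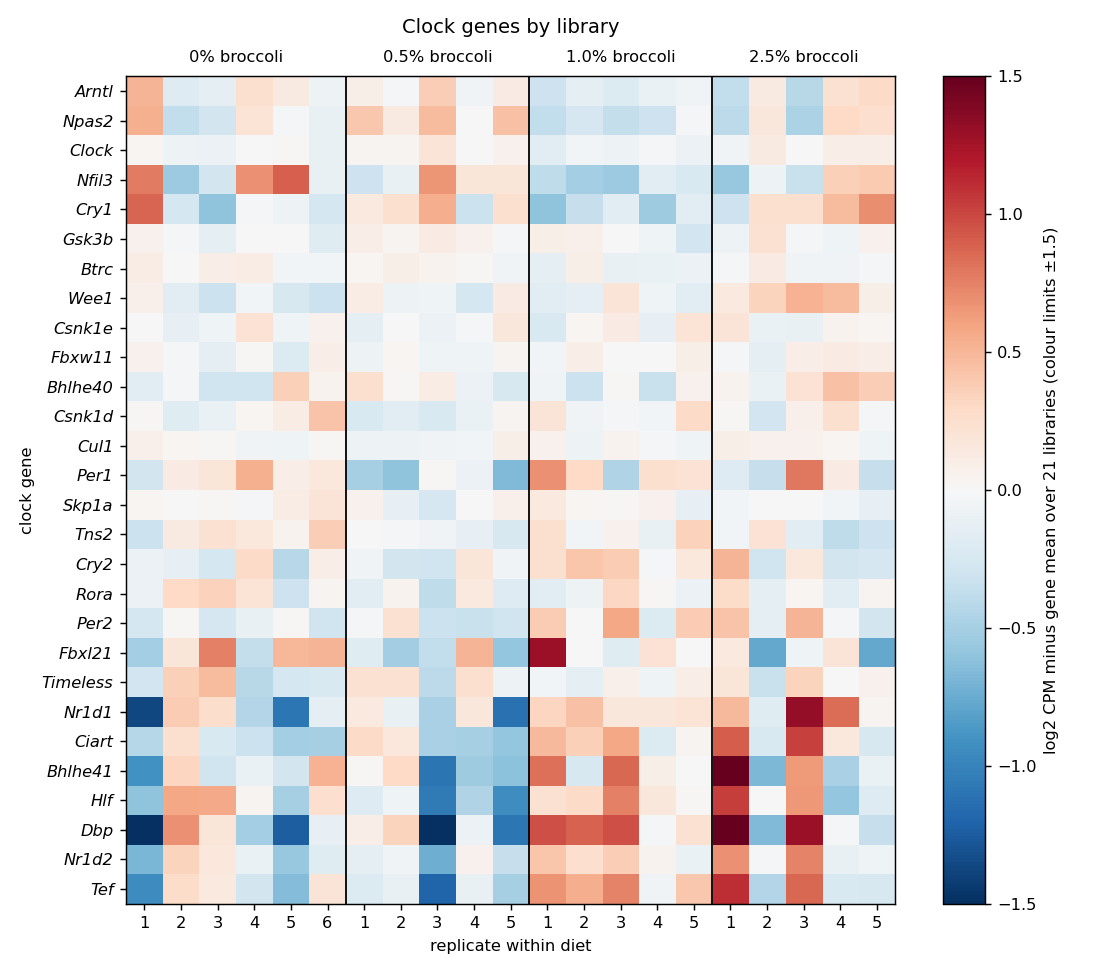
Levels of the 28 tested clock genes (down the page, ordered by their correlation with Arntl) in each of the 21 libraries (across, grouped by broccoli powder from 0% to 2.5%), as log2 CPM minus the mean of the gene over all libraries; red is above that mean and blue below it. In the 2.5% diet, replicates 1 and 3 are blue for Arntl and Npas2 and red for Dbp, Tef, Nr1d2 and Ciart.

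Among the activators, Arntl (ENSMUSG00000055116, mm10 chromosome 7, 113207465 to 113314126) had between 49.4 and 80.2 CPM (median 57.6) at 0%, then 59.8, 55.1, 73.0, 54.3 and 61.6 CPM at 0.5%, 45.3, 50.7, 48.9, 52.6 and 54.4 CPM at 1.0%, and 43.7, 61.9, 42.2, 65.9 and 68.9 CPM at 2.5%. The 4 diets overlapped, and the 2 lowest libraries of all were on 2.5%. Npas2, which can stand in for CLOCK as the partner of ARNTL, had between 47.8 and 89.3 CPM (median 59.1) at 0%, then 81.9, 67.9, 85.7, 62.1 and 83.5 CPM at 0.5%, 48.0, 51.9, 48.3, 49.6 and 61.2 CPM at 1.0%, and 47.0, 69.2, 44.5, 75.9 and 73.2 CPM at 2.5%. Npas2 was high in the same 3 libraries of the 2.5% diet as Arntl and low in the same 2. Clock, the usual partner of ARNTL, stayed between 195.5 and 250.8 CPM over all 21 libraries, with a median of 219.6 CPM. Its highest library, at 250.8 CPM, was replicate 3 at 0.5%, where Arntl was also at its highest for that diet.

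Dbp (ENSMUSG00000059824, mm10 chromosome 7, 45705088 to 45710203), an output transcription factor driven directly by the activators, had between 3.95 and 19.3 CPM (median 9.66) at 0%, then 12.8, 15.02, 3.84, 11.2 and 5.64 CPM at 0.5%, 23.3, 21.995, 23.4, 11.8 and 13.95 CPM at 1.0%, and 38.7, 7.55, 29.3, 11.7 and 9.36 CPM at 2.5%. The diets overlapped, and replicates 1 and 3 at 2.5% were the 2 highest of all libraries. From the lowest to the highest library Dbp differed 10.1-fold. Its relatives Tef and Hlf, which bind the same D-box, ranged from 26.2 to 130 CPM and from 7.95 to 34.2 CPM, with replicate 3 at 0.5% lowest and replicate 1 at 2.5% highest for both. Nfil3, a repressor at the D-box, ranged from 5.80 CPM in replicate 1 at 2.5% to 15.995 CPM in replicate 5 at 0%, so the library with the most Dbp, Tef and Hlf had the least Nfil3.

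Nr1d1, one of the repressors of Arntl, had between 24.3 and 81.0 CPM (median 51.0) at 0%, then 69.0, 57.9, 44.6, 69.96 and 28.8 CPM at 0.5%, 77.8, 84.5, 70.1, 70.1 and 71.8 CPM at 1.0%, and 87.4, 55.3, 156, 111 and 64.3 CPM at 2.5%. In 3 libraries at 2.5% the level was above every library at 0%, and in the other 2 it was within the range at 0%. Nr1d2, its paralog, had between 60.2 and 122 CPM (median 87.8) at 0%, then 88.2, 93.4, 58.1, 101 and 76.2 CPM at 0.5%, 129, 115, 125, 100.4 and 90.5 CPM at 1.0%, and 156, 95.7, 161, 89.8 and 92.7 CPM at 2.5%. At 1.0% and at 2.5% alike, replicates 1 and 3 lay above all libraries at 0% and the other 3 did not. Exons of Nr1d1 and Dbp overlap those of Thra and Sphk2 on the other strand, and whether counting used strand is not given in the sources used here. Thra stayed between 75.1 and 102 CPM and Sphk2 between 37.6 and 54.5 CPM over the 21 libraries. Rora, which activates at the element where NR1D proteins repress, ranged from 76.6 to 127 CPM.

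Of the Period genes, which encode repressors of the loop, Per1 had between 13.6 and 23.8 CPM (median 18.2) at 0%, then 11.6, 10.8, 16.7, 15.6 and 10.4 CPM at 0.5%, 26.6, 20.2, 12.0, 19.5 and 19.1 CPM at 1.0%, and 14.3, 12.9, 28.4, 17.9 and 12.9 CPM at 2.5%. There was no diet whose libraries lay apart from those at 0%. Per2 had between 22.9 and 28.6 CPM (median 24.9) at 0%, then 27.7, 33.1, 22.6, 22.4 and 23.0 CPM at 0.5%, 36.6, 28.4, 42.3, 24.5 and 36.9 CPM at 1.0%, and 38.1, 25.6, 40.1, 27.9 and 23.3 CPM at 2.5%. Above every library at 0% were 1 of 5 libraries at 0.5%, 3 of 5 at 1.0% and 2 of 5 at 2.5%, 2 libraries at 0.5% lay below them all, and no diet lay wholly apart from 0%.

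The Cryptochrome genes, whose proteins join PER in repression, differed in which mice they were high. Cry1 had between 16.4 and 45.9 CPM (median 22.3) at 0%, then 27.7, 29.4, 36.4, 19.9 and 29.5 CPM at 0.5%, 16.5, 19.7, 22.2, 17.3 and 22.1 CPM at 1.0%, and 20.1, 29.5, 29.4, 34.6 and 40.4 CPM at 2.5%. Its highest library, replicate 1 at 0%, was also the highest for Arntl. Cry2 had between 19.6 and 31.9 CPM (median 24.4) at 0%, then 25.2, 21.6, 21.2, 29.8 and 25.2 CPM at 0.5%, 30.8, 35.0, 34.2, 25.7 and 29.1 CPM at 1.0%, and 37.3, 21.3, 29.2, 21.6 and 21.9 CPM at 2.5%. Its highest library, replicate 1 at 2.5%, was also the highest for Dbp.

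Ciart, also called Chrono, which encodes a further repressor of ARNTL and CLOCK, had between 4.20 and 7.07 CPM (median 4.62) at 0%, then 7.35, 6.69, 4.27, 4.23 and 4.01 CPM at 0.5%, 8.41, 7.68, 8.9995, 5.22 and 6.16 CPM at 1.0%, and 11.2, 5.12, 12.2, 6.71 and 5.07 CPM at 2.5%. The diets overlapped, with replicates 1 and 3 at 2.5% again on top. Bhlhe41, a repressor that competes for E-boxes, was scarce, at 1.21 to 8.67 CPM, and highest in replicate 1 at 2.5%. Its paralog Bhlhe40 had between 143 and 227 CPM (median 165) at 0%, then 208, 178, 191, 166 and 149 CPM at 0.5%, 171, 142, 179.6, 140.5 and 184 CPM at 1.0%, and 184, 165, 205, 241 and 228 CPM at 2.5%. Its 2 libraries above all those at 0%, replicates 4 and 5 at 2.5%, were not the ones on top for Ciart and Bhlhe41, and both are among the 3 libraries highest in immediate early genes.

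Within diets, the SD of log2 CPM of Dbp was 0.83, larger than that of 96.4% of the 15652 tested genes, whose median was 0.21. Bhlhe41 (0.65), Nr1d1 (0.55), Tef (0.52), Hlf (0.49), Fbxl21 (0.48, at only 0.43 to 1.81 CPM), Nfil3 (0.44), Ciart (0.42), Cry1 (0.37), Per1 (0.37) and Nr1d2 (0.35) also lay above that median. Npas2 (0.28), Timeless (0.27), Per2 (0.27), Cry2 (0.26), Arntl (0.24), Bhlhe40 (0.22) and Rora (0.21) lay above it by less. Clock (0.07), whose transcript is known to cycle weakly in most tissues, and the ligase scaffold Cul1 (0.06) were among the least variable of all genes, with only 0.824% and 0.319% of tested genes below them.

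**Figure D2:**
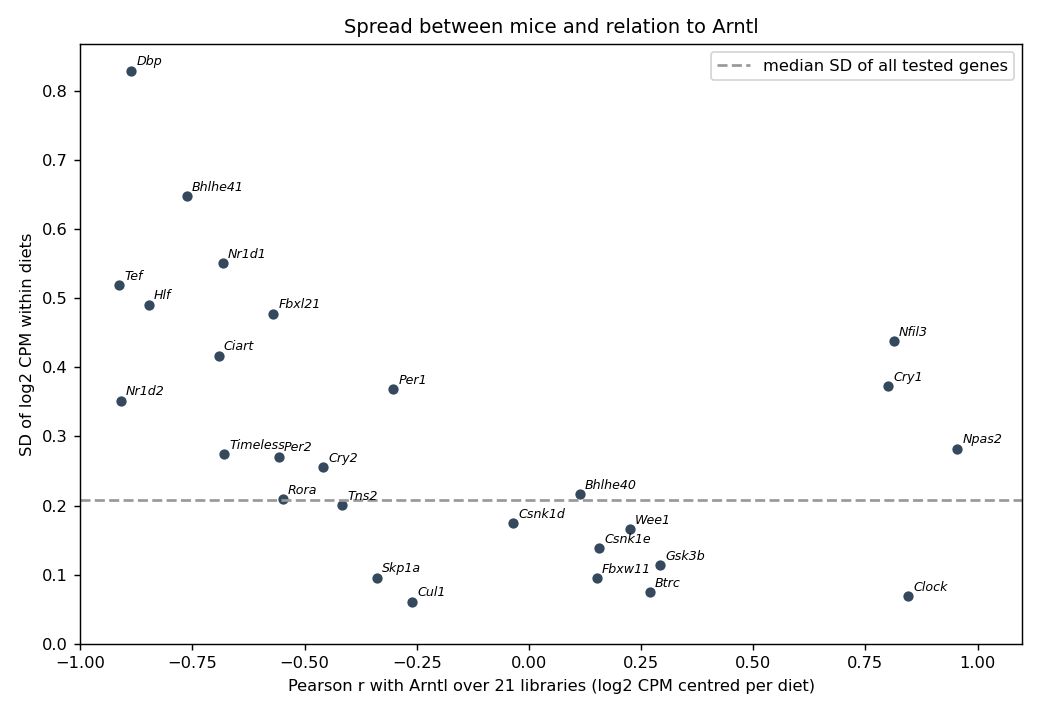
SD of log2 CPM between mice of the same diet (vertical axis) against Pearson r with Arntl over 21 libraries after centring each gene on its diet means (horizontal axis), 1 point per tested clock gene other than Arntl; the dashed line is the median SD of all tested genes, 0.21. Dbp, Tef, Hlf and Nr1d2 stand at the left, at r between -0.91 and -0.85, and Npas2, Clock, Nfil3 and Cry1 at the right, at r between 0.80 and 0.95.

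The opposite-phase genes were then compared over the 21 libraries, with Arntl, Clock and Npas2 set against Per1, Per2, Nr1d1, Nr1d2 and Dbp. Of 18 planned pairs, the 3 with Per3 could not be computed, and the other 15 were adjusted together by the Benjamini-Hochberg method. All 15 Pearson correlations of log2 CPM were negative, and 11 had an adjusted p under 0.05 in a two-sided permutation test with 100000 resamples. These values describe variation among mice, which share library preparation and scaling.

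Arntl against Dbp had r = -0.89 and Spearman's rho = -0.89, each with a permutation p of 1e-05, the smallest these permutations can give, and adjusted p of 3.75e-05 and 5e-05. Without the 2 libraries farthest from the median of Arntl, r was -0.84, and after centring both genes on their diet means it was -0.89. Arntl against Nr1d2 likewise had r = -0.89 (rho = -0.86; adjusted permutation p = 3.75e-05 and 5e-05), and -0.83 without the 2 farthest libraries. Against Nr1d1, r was -0.69 (rho = -0.73; adjusted permutation p = 0.00162 and 0.00108), with -0.56 without those 2 libraries. Against Per2, r was -0.65 (rho = -0.59; adjusted permutation p = 0.00428 and 0.00993), with -0.61 without them. Arntl and Per1 did not pass, at r = -0.37 (rho = -0.38; adjusted permutation p = 0.105 and 0.0902).

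Npas2 followed Arntl in this. Npas2 against Nr1d2 had r = -0.83 (rho = -0.85; adjusted permutation p = 3.75e-05 and 5e-05), and against Dbp r = -0.80 (rho = -0.80; adjusted permutation p = 3.75e-05 and 0.000113), with -0.76 and -0.72 without the 2 libraries farthest from the median of Npas2. Npas2 also passed against Nr1d1 (r = -0.62), Per2 (r = -0.57) and Per1 (r = -0.51), the last with the highest of these adjusted permutation p, 0.0244. For Clock, whose level varied little, r against Dbp was -0.62 (rho = -0.62; adjusted permutation p = 0.00531 and 0.00653), and -0.48 without its 2 farthest libraries, where the adjusted permutation p was 0.0575. Clock against Nr1d2 had r = -0.54 (rho = -0.53; adjusted permutation p = 0.0164 and 0.0194), which without its 2 farthest libraries was -0.36 (adjusted permutation p = 0.159), so the calls of these 2 relations, in values as measured, rest on those libraries. By Pearson's r Clock did not pass against Per2 (r = -0.45), Per1 (r = -0.43) or Nr1d1 (r = -0.29), with adjusted permutation p of 0.055, 0.0614 and 0.201. By rank it passed against Per1 (rho = -0.56, adjusted permutation p = 0.0144) and Nr1d1 (rho = -0.46, adjusted permutation p = 0.0419) and not against Per2 (rho = -0.40, adjusted permutation p = 0.0765). After centring on diet means, with permutation within diets, Clock had r = -0.84 with Dbp, -0.80 with Nr1d2 and -0.57 with Nr1d1 (adjusted permutation p = 0.000263, 0.00128 and 0.0285). In the same centred values Npas2 no longer passed against Per1 (r = -0.32, adjusted permutation p = 0.246) or Per2 (r = -0.46, adjusted permutation p = 0.0718).

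**Figure D3:**
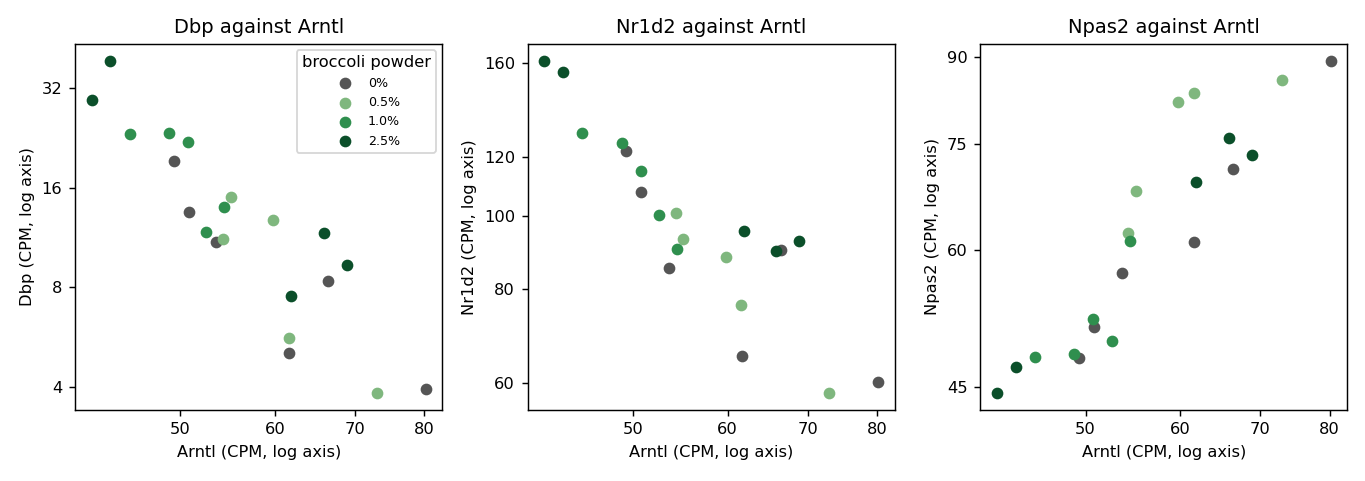
Dbp, Nr1d2 and Npas2 (vertical axes) against Arntl (horizontal axes), in CPM on log axes, with 1 point per library coloured by the share of broccoli powder. Dbp and Nr1d2 run opposite to Arntl with r = -0.89 each and Npas2 runs with it at r = 0.91, and libraries of every diet lie along the same course.

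Several of the other clock genes took sides in the same way, and others did not. In values centred on diet means, given as a description over 21 libraries, Arntl correlated at 0.95 with Npas2, 0.84 with Clock, 0.81 with Nfil3 and 0.80 with Cry1. On the opposite side stood Tef at -0.91, Nr1d2 at -0.91, Dbp at -0.89, Hlf at -0.85, Bhlhe41 at -0.76, Ciart at -0.69, Nr1d1 at -0.68 and Timeless, a replication fork gene named for its fly relative, at -0.68. Of all 15652 tested genes, 7 (0.0447%) had a centred r with Arntl of -0.8 or lower, and 4 of the 7 were clock genes. At 0.8 or higher were 10 (0.0639%), of which 4 were clock genes. Nfil3, which stood on the Arntl side, shares with Arntl the TAGGTCA element capitalised in the promoters above. No window of another clock gene held it, though Npas2, Clock and Cry1 stood on that side too. For 6 of the clock genes there was no window to search. Ciart and Tef, whose windows hold CACGTG, stood on the Dbp side. So did Nr1d1, for which only the variant CACGTT was found, and the Cry1 window holds CACGTG as well. Fbxl21 (-0.57), Per2 (-0.56), Rora (-0.55), Cry2 (-0.46) and Tns2 (-0.42) lay opposite to Arntl as well, but less far out. Wee1 (0.22), Bhlhe40 (0.11), Csnk1d (-0.03) and Csnk1e (0.16) followed neither side. Gsk3b (0.29), Btrc (0.27), Fbxw11 (0.15), Cul1 (-0.26), Per1 (-0.30) and Skp1a (-0.34) were only weakly related to Arntl.

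By likeness to Dbp over the 21 libraries, again in centred log2 CPM among 13737 genes with at least 1 CPM, the 10 nearest genes held 5 clock genes, Tef (0.96), Nr1d2 (0.94), Hlf (0.90), Ciart (0.84) and Bhlhe41 (0.82). The other 5 were Ccdc116 (0.85), Sybu (0.85), Podxl (0.82), Myrip (0.80) and Mtr (0.79), where Podxl encodes a surface sialomucin and Mtr methionine synthase. The 10 most opposite genes held Arntl (-0.89), Nfil3 (-0.84), Clock (-0.84) and Npas2 (-0.81). Beside them stood Ranbp6 (-0.82), Adamts4 (-0.81), Spon2 (-0.81), Rmi1 (-0.80), the zinc transporter gene Slc30a4 (-0.78) and the fatty acid elongase gene Elovl7 (-0.78).

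Tissue makeup was set beside these levels through 7 marker lists, for large bowel epithelium, small intestine, smooth muscle, B cells, neurons and glia, fat, and immediate early genes. None of the 14 correlations of Arntl or Dbp with the mean of a list passed, and the lowest adjusted permutation p was 0.459, for Arntl with neurons and glia (r = -0.47, rho = -0.40). Without the 6 libraries high in small intestine genes, Arntl against Dbp had r = -0.90 over the other 15 libraries (adjusted permutation p = 7.5e-05). Of the 15 pairs, 8 passed in those libraries, and Clock with Nr1d2, Npas2 with Per1 and Npas2 with Per2 no longer did (adjusted permutation p = 0.0558, 0.107 and 0.0699). Without the 3 libraries highest in immediate early genes, 11 of the 15 passed, with Clock and Nr1d1 now among them (r = -0.50, adjusted permutation p = 0.0457) and Npas2 and Per1 no longer (r = -0.45, adjusted permutation p = 0.068).

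The study asked how added broccoli powder changes expression in the cecum, and at 2.5% against 0% Wee1 was the clock gene that passed. Wee1 (ENSMUSG00000031016, mm10 chromosome 7, 110122046 to 110143286) encodes the kinase that holds back entry into mitosis, and its transcription is driven by CLOCK and ARNTL in mouse liver. In these libraries Wee1 followed neither side, with a centred r of 0.22 with Arntl and -0.14 with Dbp. It had 23.6, 26.9, 30.5, 29.7 and 22.6 CPM at 2.5%, against between 17.01 and 22.4 CPM (median 18.5) at 0%. All 5 libraries at 2.5% lay above all 6 at 0%, which held for no other clock gene and, in either direction, for 0.664% of all tested genes. The means were 26.6 ± 3.53 CPM at 2.5% and 19.0 ± 2.16 CPM at 0% (SD, n = 5 and 6), a log2 change of 0.48 ± 0.10 (SE; edgeR quasi-likelihood test, adjusted p = 0.0479).

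The call of Wee1 was close to the threshold. Leaving out each of the 21 libraries in turn, it was lost in 18 cases, with log2 changes between 0.43 and 0.54, and held without replicate 1 at 0%, replicate 1 at 2.5% or replicate 2 at 2.5%. Replicates 3 and 4 at 2.5%, its 2 highest libraries, are among the 3 highest in immediate early genes. Without those 3 libraries, which leaves only replicates 1 and 2 at 2.5%, the change was 0.40 ± 0.13 (adjusted p = 0.988). The part of the immediate early libraries in the result was not tested beyond that.

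Wee1 was 1 of 28 clock genes called, against 17 of all 15652 tested genes (0.109%). An unadjusted p under 0.05 was reached by 6 of the 28 (21.4%), against 8.43% of all genes. Many clock genes varied together between mice, so such shares, here and below, are not counts of independent genes. In all, 18 of the 28 log2 changes were positive, and their median was 0.07, against -0.01 over all tested genes. The other genes with an unadjusted p under 0.05 did not pass, with log2 changes of 0.87 ± 0.32 for Nr1d1 (adjusted p = 0.474), 0.70 ± 0.23 for Ciart (adjusted p = 0.389), 0.43 ± 0.20 for Nr1d2 (adjusted p = 0.582), 0.25 ± 0.12 for Bhlhe40 (adjusted p = 0.577) and -0.24 ± 0.12 for Tns2 (adjusted p = 0.588).

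Tns2, a focal adhesion gene, had 16.6, 19.7, 15.1, 13.1 and 13.7 CPM at 2.5%, against between 13.6 and 21.9 CPM (median 18.8) at 0%, and the groups overlapped. Dbp had a fitted change of 0.93 ± 0.49 and did not pass (adjusted p = 0.632). Replicates 1 and 3 at 2.5% stood above all libraries at 0% and the other 3 within their range, and with 1 library left out the change ran from 0.51 to 1.20. Without the 6 small intestine libraries Dbp was 0.59 ± 0.56 (adjusted p = 0.704), and without the 3 immediate early libraries 1.18 ± 0.62 (adjusted p = 0.988). The activators Arntl (-0.10 ± 0.13), Clock (0.09 ± 0.06) and Npas2 (-0.02 ± 0.16) had no adjusted p below 0.660. The repressors Per1 (-0.09 ± 0.21), Per2 (0.28 ± 0.15), Cry1 (0.28 ± 0.22) and Cry2 (0.07 ± 0.14) did not pass either. With 1 library left out, Per2 ran from 0.17 to 0.36 and Cry1 from 0.16 to 0.54, the highest without replicate 1 at 0%, where Cry1 did not pass (adjusted p = 0.231). Without the 6 libraries high in small intestine genes, Bhlhe40 passed beside Wee1, with a log2 change of 0.49 (adjusted p = 0.0463), in a fit that called 121 of all genes. At 2.5% that fit held only replicates 3, 4 and 5, the 3 libraries highest in immediate early genes. Without those 3, with only replicates 1 and 2 left at 2.5%, Bhlhe40 was 0.02 ± 0.15 (adjusted p = 0.999), in a fit that called none. Also without those 3, Nr1d1 was 0.45 ± 0.40 (adjusted p = 0.988) and Tns2 -0.03 ± 0.15 (adjusted p = 0.999), and without the 6 small intestine libraries Tns2 was -0.42 ± 0.14 (adjusted p = 0.19).

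**Figure D4:**
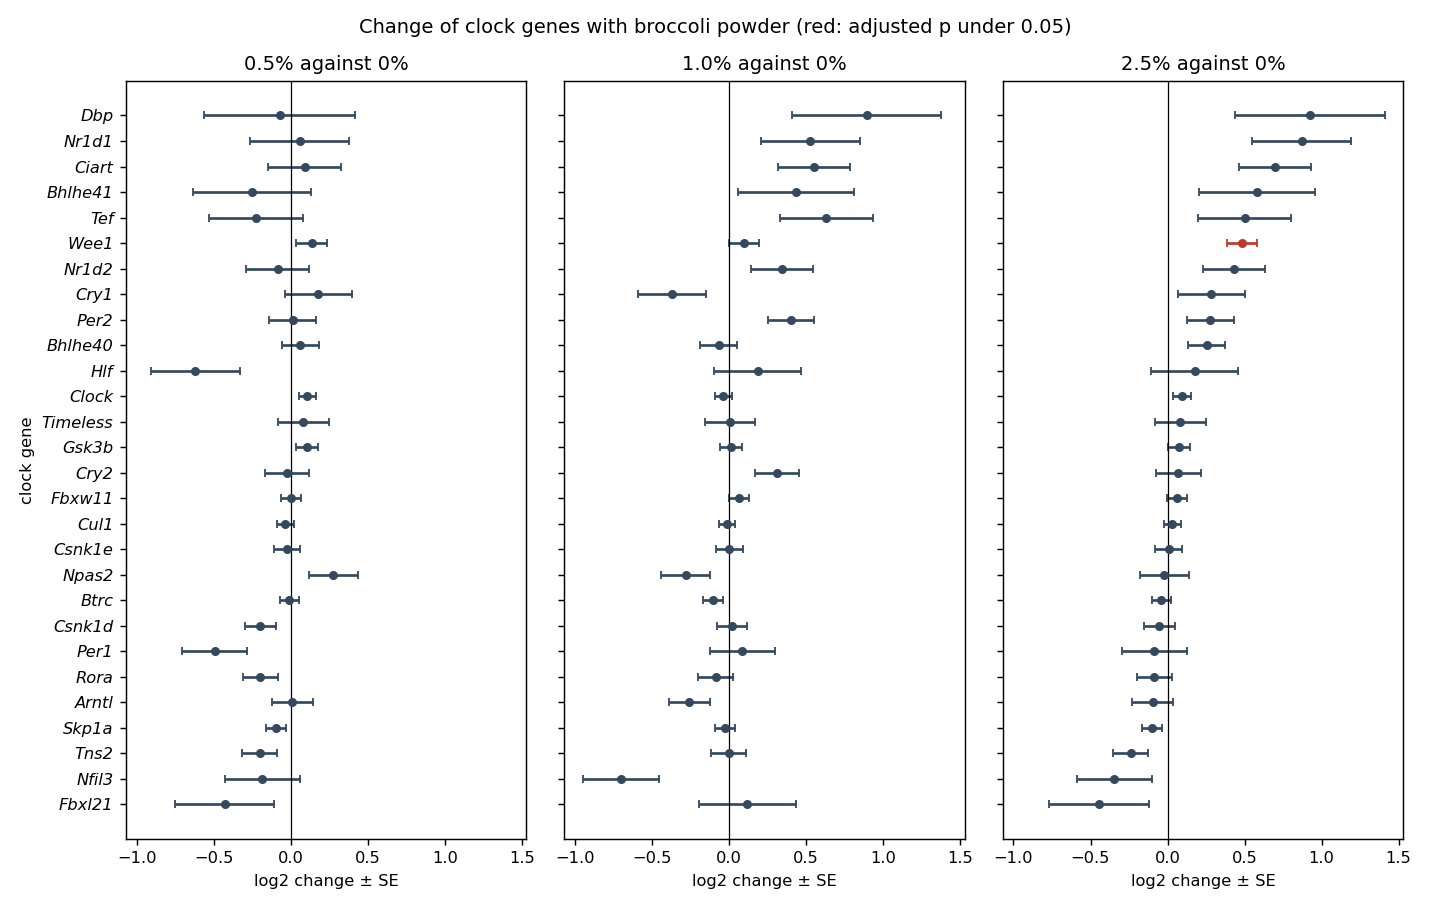
Fitted log2 change (horizontal axis, ± SE) of each of the 28 tested clock genes (down the page, ordered by the change at 2.5%) at 0.5%, 1.0% and 2.5% broccoli powder against 0%, from 1 fit of all 21 libraries with shared controls. Wee1 at 2.5%, in red, is the only value that passed, at 0.48 ± 0.10, and the error bars of Dbp, at 0.93 ± 0.49, are the widest at that dose.

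At 1.0% against 0%, no clock gene passed by edgeR, by DESeq2 or by limma voom, and none of all 15652 tested genes did (0%). An unadjusted p under 0.05 was reached by 4 of 28 (14.3%), against 3.18% of all genes. These were Nfil3 with a log2 change of -0.71 ± 0.25, Per2 with 0.40 ± 0.15, Ciart with 0.55 ± 0.23 and Cry2 with 0.31 ± 0.14, all with an adjusted p of 0.999. Nfil3 had 6.58, 6.03, 5.89, 7.65 and 7.33 CPM at 1.0%, against between 5.87 and 15.995 CPM (median 10.9) at 0%. All 5 values lay in the lower part of the range at 0%, which contained them. No clock gene had all 5 libraries at 1.0% above, or all 5 below, those at 0%, against 0.179% of all tested genes.

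At 0.5% against 0%, no clock gene passed by any of the same 3 tools. Of all genes, 1 passed by edgeR (0.00639%), 1 by limma voom and 2 by DESeq2. An unadjusted p under 0.05 was reached by 2 of 28 (7.14%), the same share as of all genes (7.14%). Per1 had a log2 change of -0.50 ± 0.21 and Hlf of -0.62 ± 0.29, both with an adjusted p of 0.685. Libraries at 0.5% overlapped those at 0% for every clock gene tested, where 0.505% of all tested genes had no overlap. The comparisons of the 3 doses share the 6 libraries at 0%, so their values are not independent of each other. For Dbp they were -0.07 ± 0.49, 0.89 ± 0.48 and 0.93 ± 0.49 at 0.5%, 1.0% and 2.5%, and for Nr1d1 0.06 ± 0.32, 0.53 ± 0.32 and 0.87 ± 0.32.

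With the share of powder as a number, Wee1 changed by 0.19 ± 0.04 in log2 CPM per 1% powder (edgeR, adjusted p = 0.0362), 1 of 28 clock genes against 23 of all genes (0.147%). Its means were 19.0 ± 2.16, 20.9 ± 2.23, 20.4 ± 2.29 and 26.6 ± 3.53 CPM at 0%, 0.5%, 1.0% and 2.5% (SD, n = 6, 5, 5 and 5), so the 3 lower means lay close together and the mean at 2.5% above them. The call was lost when any of 8 of the 21 libraries was left out (replicates 2, 3, 5 and 6 at 0%, 3 and 4 at 0.5%, 3 and 4 at 2.5%), and without the 3 libraries highest in immediate early genes the slope was 0.15 ± 0.05 (adjusted p = 0.999). By unadjusted p under 0.05 there were 6 of 28 (21.4%), against 7.32% of all genes. The other 5 did not pass, with slopes of 0.36 ± 0.12 for Nr1d1, 0.29 ± 0.09 for Ciart, 0.19 ± 0.08 for Nr1d2, 0.41 ± 0.19 for Dbp and 0.10 ± 0.05 for Bhlhe40, and their lowest adjusted p was 0.383, for Ciart.

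**Figure D5:**
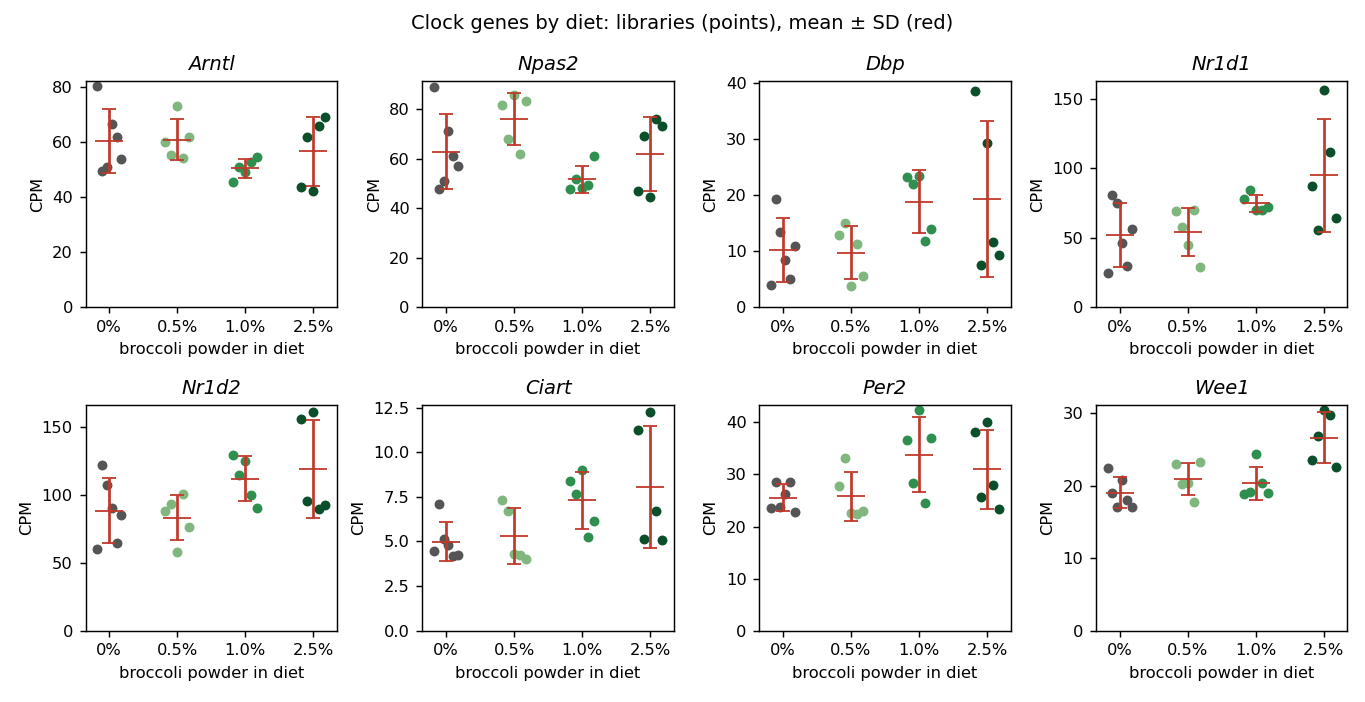
Levels in CPM (vertical axes) of 8 clock genes by share of broccoli powder (horizontal axes, 0% to 2.5%), with 1 point per library and the mean ± SD in red. Wee1 at 2.5% lies between 22.6 and 30.5 CPM, above the 6 libraries at 0%, whereas Dbp at 2.5% splits into 2 libraries at 29.3 and 38.7 CPM and 3 between 7.55 and 11.7 CPM.

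Over the 4 diets together, no clock gene passed by edgeR, against 4 of all genes (0.0256%), while 6 of 28 had an unadjusted p under 0.05 (21.4%, against 6.41% of all genes). Wee1 was the nearest (adjusted p = 0.181), and DESeq2 called it among 68 of all genes, while limma voom called no clock gene. At 2.5% against the mean of 0.5% and 1.0%, none passed by edgeR or limma voom, against 11 (0.0703%) and 3 of all genes. By edgeR, 2 of 28 had an unadjusted p under 0.05 (7.14%, against 4.44%). These were Wee1, with a log2 change of 0.37 ± 0.09 (adjusted p = 0.159), which DESeq2 called among 44 of all genes, and Bhlhe40, with 0.26 ± 0.11 (adjusted p = 0.999).

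None of the enzymes that set the stability of PER and CRY was called in any comparison by edgeR. The 8 genes were Csnk1d and Csnk1e, casein kinases that phosphorylate PER, Gsk3b, a further clock kinase, and Btrc, Fbxw11, Fbxl21, Skp1a and Cul1, parts of SCF ubiquitin ligases. At 2.5% against 0% their log2 changes lay between -0.45 and 0.07, with the lowest at Fbxl21, and the lowest adjusted p was 0.681. Fbxl21 was counted at 0.43 to 1.81 CPM, with 674 reads over all 21 libraries, so its values carry the largest counting error of the set. Over all libraries the ratio of the highest to the lowest level was 1.65 for Csnk1d, 1.44 for Gsk3b, 1.37 for Csnk1e, 1.35 for Skp1a, 1.26 for Fbxw11, 1.20 for Btrc and 1.12 for Cul1.

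A further 34 genes of the clock pathway, among them other kinases, cofactors and known output genes, were all tested, and none was called in any of the 6 comparisons by edgeR. At 2.5% against 0%, 9 of the 34 had an unadjusted p under 0.05, 22 of 34 changes were positive and the median log2 change was 0.04, against 8.43% of all tested genes under that p, 46.9% positive and a median of -0.01. Among the 9, Ep300, a coactivator of CLOCK and ARNTL, had 0.21 ± 0.06 (adjusted p = 0.266), Cipc, an inhibitor of CLOCK, 0.33 ± 0.12 (adjusted p = 0.424) and Tsc22d3, a glucocorticoid-induced gene, -0.38 ± 0.15 (adjusted p = 0.493). At 0.5% against 0%, Prkaa1, the catalytic AMPK subunit whose kinase marks CRY1 for breakdown, had 0.32 ± 0.08 (adjusted p = 0.589). Klf10, a clock output factor, had 0.53 ± 0.14 at 2.5% against the lower doses (adjusted p = 0.311). The summed level of the 34 genes was highest in replicates 3, 4 and 5 at 2.5%, at 4003, 3978 and 3890 CPM, against at most 3803 CPM elsewhere. These are the 3 libraries highest in immediate early genes. By mean log2 CPM, replicate 2 at 1.0% (5.87) lay above replicates 4 and 5. The changes of the 34 genes were not taken without those 3 libraries, so their part in them was not tested.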

How the data were processed

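Messenger RNA of the cecum was sequenced from 21 mice of 4 diets, from total RNA with a strand-marking ligation kit, per the labels' protocols. What the authors deposited is a single table of raw read counts, 1 per gene and library, and the submitters' processing notes name the build mm10. Aligner, counting tool, annotation and strand setting were not given in the sources used here. Groups follow the diet in the labels. Each library carries its own animal number there and was taken as a separate mouse, cages are not named, and replicate numbers in accession order only name a library. No pair of libraries of 1 diet agreed within sampling noise (lowest chi-square per degree of freedom 17.1).

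GENCODE M21 named 25268 of the 25361 identifiers. Genes were tested with edgeR 4.0.16 (R 4.3.3) by its robust quasi-likelihood test, with the 21 libraries fitted together, TMM scaling, filterByExpr by diet, and Benjamini-Hochberg adjustment over the 15652 genes kept. The call threshold was an adjusted p of 0.05, every adjusted p of a gene is from this test unless another tool is named, and tests were two-sided. Correlations used log2 CPM with a prior count of 2. Scripts were tested on simulated data. The alternatives were other scalings and filters, DESeq2 1.42.0, limma 3.58.1 voom, a small intestine covariate, only the groups compared, and left-out libraries. Leaving out the 3 libraries highest in immediate early genes was chosen after seeing the data.

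The 30 genes, the 34 further pathway genes, the marker lists and the tests were chosen with earlier results of these data known. Values by library were to be given for the core loop genes, for any gene called, and for any gene with an unadjusted p under 0.05 at 2.5% against 0% or for the slope, and the genes outside the set were the 10 most like and the 10 most opposite to Dbp.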

Additional observations from a re-analysis of the deposited data

Results flagged for a closer look

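In 56 combinations of a gene and a diet, 14 genes by 4 diets, the highest and lowest library were compared with the rest of their group, and 4 had a library far from the others, where chance gives about 1 in 20. Clock had 250.8 CPM in replicate 3 at 0.5%, against 220.1 to 228.1 CPM in the other 4 libraries of that diet. Cry1 had 45.9 CPM in replicate 1 at 0%, against 16.4 to 24.4 CPM in the other 5, and that library was also the highest of all for Arntl and Npas2. Ciart had 7.07 CPM in replicate 2 at 0%, against 4.20 to 5.13 CPM in the other 5. Wee1 had 24.3 CPM in replicate 3 at 1.0%, against 18.9 to 20.4 CPM in the other 4, a level above the lowest 2 libraries at 2.5%.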

How the results depend on the processing

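The count of called clock genes at 2.5% against 0%, which is 1, was 0 with library totals only, with limma voom, without the animals numbered above 70, with only the groups compared, and without the 3 libraries highest in immediate early genes, and 2 without the 6 libraries high in small intestine genes. Leaving out each library in turn gave 0 to 1, and the same range for the slope, where limma voom and leaving out the 3 immediate early libraries also gave 0. DESeq2 gave 1 call, Wee1, over the 4 diets together and 1 at 2.5% against the mean of the lower doses. Over all settings the adjusted p of Wee1 ran from 0.00295 to 0.988 at 2.5% and from 0.0024 to 0.999 for the slope, always with a positive change. Over all tested genes, calls at 2.5% against 0% were 17 and ran from 0 to 121 over the settings, and for the slope were 23 and ran from 0 to 101, with none called without the 3 immediate early libraries and the most without the 6 small intestine libraries. They were 4 and ran from 0 to 86 over the 4 diets together, 11 and from 0 to 111 at 2.5% against the lower doses, and 1 and from 0 to 2 at 0.5% against 0%. The 11 opposite-phase pairs became 8 to 13 over the settings, and 10 to 13 with 1 library left out.

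Small changes that did not pass turned sign in some settings, and the cause was not tested. Without the 6 small intestine libraries, Npas2 (0.027), Per1 (0.0934) and Cry2 (-0.106) turned at 2.5% against 0%, as did the slope of Cry2 (-0.0122). Without the animals numbered above 70 the slope of Per1 was -5e-04. Without the 3 immediate early libraries, Cry1 was -0.0337 at 2.5% against 0%, and slopes were -0.0936 for Per1, -0.0802 for Cry1, -0.0085 for Bhlhe40 and 0.0085 for Tns2. With 1 library left out, the log2 change at 2.5% against 0% ran from -0.18 to 0.0014 for Arntl, -0.11 to 0.10 for Npas2, -0.34 to 0.003 for Per1 and -0.0881 to 0.153 for Cry2, and the slopes from -0.019 to 0.0705 for Cry2 and -0.0806 to 0.0552 for Per1.

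No paired analysis was possible because replicate numbers were given in accession order and name a library only. With 5 or 6 mice a diet, the SE of Dbp (0.49) stands beside a change of 0.93 that was not called. Depth limits Fbxl21 most, with 674 reads in all.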
